A study of Mus musculus with 48 samples.

Results

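Water leaves the renal tubule through aquaporins, and the antidiuretic hormone vasopressin sets how much of it leaves in the collecting duct through its V2 receptor. In the mouse kidney series, 7 aquaporins (Aqp1, Aqp2, Aqp3, Aqp4, Aqp6, Aqp7 and Aqp11) and the V2 receptor gene Avpr2 were followed over the day. These 8 genes were chosen by name, and their rows were taken from all 48 tables, in which 12423 genes were listed in both assays. All 8 were listed in every library and passed the filter on low values (a median of at least 0.5 RPKM in both assays, 11863 genes).

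The kidneys came from male C57BL/6JRj mice aged 11-12 weeks, entrained for 2 weeks to 12 h of light and 12 h of dark with free access to food and water. ZT0 is lights-on and ZT12 lights-off, so that ZT14 to ZT22 fall into the dark, when mice are active. At each of 12 timepoints 2 h apart there were 2 replicate pools, each combining the lysates of 2 mice, and no genotype or drug was compared. Each of the 24 pools gave 1 RNA-seq library of total RNA and 1 RPF-seq library of the mRNA fragments that ribosomes protect from nuclease. RPF-seq therefore reports translation, and the ratio of RPF to RNA in a pool is the translation efficiency (TE). The values were RPKM, read numbers scaled to coding length and library depth, which can be compared between genes because they are per length. An estimated 9830000 to 33470000 reads lay behind the values of an RNA-seq library, and 15510000 to 34890000 behind those of an RPF-seq library. The lysates were of kidney with its cell types mixed, so that fewer cells of a type and less RNA per cell cannot be told apart.

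AQP1 is the constitutive water channel of the proximal tubule and the descending thin limb. AQP2 sits in vesicles below the apical membrane of collecting duct principal cells until vasopressin, acting on the V2 receptor through cAMP and protein kinase A, has it inserted into that membrane. AQP3 and AQP4 let the water out across the basolateral membrane of the same cells, and AQP3 and AQP7 also carry glycerol. AQP6 is an intracellular, anion-permeable member of intercalated cells, AQP7 lies in the brush border of the straight proximal tubule, and AQP11 lies in the endoplasmic reticulum of proximal tubule cells. The long-term abundance of AQP2 is set in part by transcription, for which cAMP response elements are known.

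On GRCm38, Aqp2 (ENSMUSG00000023013) lies on chromosome 15 at 99579055-99584547 on the plus strand. Aqp6 (ENSMUSG00000043144) follows it at 99601400-99605477 on the same strand, 16.85 kb further on. Aqp7 (ENSMUSG00000028427, chromosome 4, 41033074-41048139, minus strand) and Aqp3 (ENSMUSG00000028435, 41092722-41098183, minus strand) are 44.58 kb apart. Aqp1 (ENSMUSG00000004655) spans 55336432-55348555 on chromosome 6, Aqp11 (ENSMUSG00000042797) spans 97724006-97738289 on chromosome 7, and Avpr2 (ENSMUSG00000031390) spans 73892102-73895502 on the X chromosome. Every value below was measured on the coding exons of these genes.

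Promoters are shown for the neighbours Aqp2 and Aqp6, because their RNA peaks fell into the dark and into the light and because both hold the E-box CACGTG, the letters bound by the core clock activators. The RefSeq table (GRCm38.p6) held 8 starts for 7 of the 8 genes, with 2 for Aqp7. In the 250 bases before each start, CACGTG stood in front of Aqp2 and Aqp6 and not in the other 6 windows, against 6.021% of the windows before all 32851 starts. The windows are chr15:99578806-99579055 for Aqp2 and chr15:99600950-99601199 for Aqp6, both on the plus strand and written 5′ to 3′ with the E-box in capitals.
Aqp2: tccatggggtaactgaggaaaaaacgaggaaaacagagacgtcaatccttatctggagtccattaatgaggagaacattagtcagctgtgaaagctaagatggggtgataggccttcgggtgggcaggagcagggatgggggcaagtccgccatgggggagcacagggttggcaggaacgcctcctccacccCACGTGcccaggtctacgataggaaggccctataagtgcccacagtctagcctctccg
Aqp6: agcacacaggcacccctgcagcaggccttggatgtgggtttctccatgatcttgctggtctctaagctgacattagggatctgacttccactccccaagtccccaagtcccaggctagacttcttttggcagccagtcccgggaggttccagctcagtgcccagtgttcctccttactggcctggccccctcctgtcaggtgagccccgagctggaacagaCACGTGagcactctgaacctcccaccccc

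The E-box began 58 bases before the Aqp2 start and 29 bases before the Aqp6 start of the RefSeq table. For Aqp6 that start lies upstream of the gene start at 99601400 given above, since its window ends at 99601199. Counted from 99601400, the E-box is further away. The core of the cAMP response element, TGACG on either strand, was present once before Aqp2 (17.77% of all windows have it) and in none of the other windows, while the full element TGACGTCA (1.546%) was in none. The D-box letters TTANGTAA (2.061%) and the core TAGGTCA (2.234%), searched on both strands, were in none of the 8 windows either. TGACG is contained in TGACGTCA, and these matches describe letters only.

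The members differed by more than an order of magnitude in abundance, and RNA and footprints ranked them alike. Aqp1 was the most abundant with 438 ± 65.6 RPKM in RNA-seq and 1017 ± 170 RPKM in RPF-seq (mean ± SD over 24 pools, here and in the next sentences). It made up 58.6% of the summed RNA of the 8 genes and 62.1% of their summed footprints. Aqp2 followed with 124 ± 33.0 RPKM of RNA and 216 ± 69.9 RPKM of footprints, and Aqp3 with 57.0 ± 11.0 and 195 ± 31.9 RPKM. These are the channels of the collecting duct principal cell, where AQP2 forms the entry and AQP3 an exit. Aqp11 stood at 50.03 ± 7.11 RPKM in RNA-seq and 66.6 ± 9.23 in RPF-seq, above Aqp7 with 26.5 ± 2.55 and 53.9 ± 4.38. Aqp6 had 22.5 ± 4.94 RPKM of RNA and 43.2 ± 10.7 RPKM of footprints, and Aqp4 had 17.0 ± 4.35 and 29.6 ± 9.51. The receptor Avpr2 was the lowest with 11.9 ± 1.99 and 13.1 ± 3.11 RPKM, which still placed it at percentile 40.3 of the tested genes by RNA and 49.2 by footprints.

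Not every neighbour in this order was separate from the next. In RNA-seq the ranges of Aqp1, Aqp2 and Aqp3 did not touch, but Aqp3 exceeded Aqp11 in 18 of 24 pools, Aqp7 exceeded Aqp6 in 19 and Aqp6 exceeded Aqp4 in 17. In RPF-seq Aqp2 and Aqp3 were no longer apart: Aqp2 exceeded Aqp3 in 14 of 24 pools. The ratio of Aqp2 to Aqp3 had a median of 2.07 in RNA (1.42 to 3.53) and of 1.04 in footprints (0.82 to 1.80). Aqp4 was above Avpr2 within each of the 24 pools in both assays, although the ranges of the 2 genes overlapped. Per-length levels of Aqp4, Aqp6 and Avpr2 depend on the coding length used, since the annotation has 2, 2 and 3 coding lengths for them, from 483 to 1116 bases for Avpr2.

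Aqp2 and Aqp3 were closer in footprints than in RNA because Aqp3 had the higher TE. Relative to the median gene of the same pool, 6 of the 8 genes had a TE above it by at least 1.5-fold (moderated test in limma across all genes, FDR below 0.05), while 20.6% of all tested genes were called above the median gene and 26% below it. Aqp3 stood 3.62-fold above the median gene (1.86 ± 0.22 on the log2 scale, mean ± SD, n = 24), at percentile 99.8 of all genes. Its lowest pool was still at 1.27 and its highest at 2.17 on that scale. Aqp1 followed at 2.45-fold (1.29 ± 0.13, percentile 97.9), then Aqp7 at 2.15-fold (1.10 ± 0.14), Aqp6 at 2.02-fold (1.01 ± 0.31), Aqp2 at 1.83-fold (0.88 ± 0.21) and Aqp4 at 1.81-fold (0.85 ± 0.15). In all 24 pools, the TE of each of these 6 genes was above that of the median gene.

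**Figure D1:**
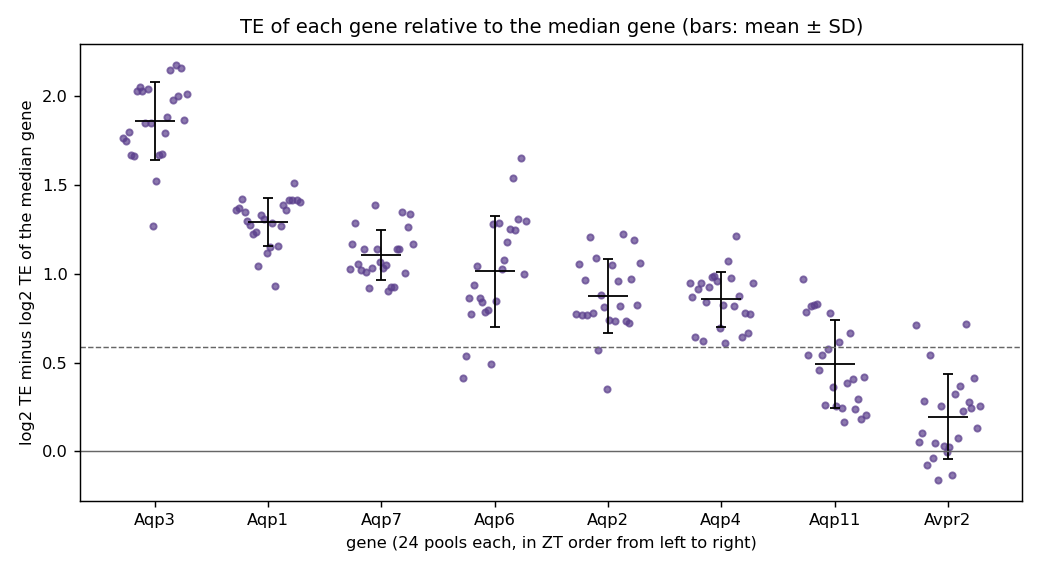
TE of each gene relative to the median gene of the same pool (y axis, log2; 0 is the median gene and the dashed line is 1.5-fold above it), with 1 point per pool in order of ZT from left to right (24 pools per gene) and bars for mean ± SD. Aqp3 lies highest at a mean of 1.86, while Aqp11 (0.49) and Avpr2 (0.20) have means below the dashed line.

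The other 2 genes were closer to the median gene. Aqp11 had a TE 1.41-fold above it (0.49 ± 0.25 on the log2 scale, pools from 0.16 to 0.97), and Avpr2 one of 1.14-fold (0.20 ± 0.24, pools from -0.16 to 0.72). Both differed from the median gene at the same FDR (2.6e-10 and 0.00041) without reaching 1.5-fold. Aqp3 and Aqp4, which encode the 2 water exit channels of principal cells, thus had unequal TEs, 3.62-fold and 1.81-fold. The receptor gene Avpr2 had a TE near that of the typical mRNA. These TEs are of whole kidney lysates and not of principal cells alone.

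To ask which members followed the day, a 24-h cosine curve was fitted to log2(RPKM + 0.1) of each gene over the 24 pools of an assay, and a gene was called rhythmic at an FDR below 0.05 and a fitted peak-to-trough fold of at least 1.5. In RNA-seq 3 of the 8 genes were called, Aqp2, Aqp3 and Aqp4, with 10.2% of all tested genes called by the same rule. Those 3 encode water channels of the collecting duct principal cell, measured here in whole kidney lysates. With the 12 pools of replicate 1 alone, Aqp2 (0.58 on the log2 scale) and Aqp4 (0.55) lost their RNA calls and Aqp6 gained one. Without the fold cutoff all 8 genes passed over the 24 pools, against 48.6% of all genes. The median fitted fold was 1.45 over the 8 genes and 1.20 over all genes. In RPF-seq Aqp2, Aqp4 and Avpr2 were called, against 7.58% of all genes, and 5 of 8 passed the FDR alone, against 30.9%. With the 12 pools of replicate 2 alone 0 members were called in RPF-seq, and with those of replicate 1 alone Avpr2 was. The median fold in RPF-seq was 1.40 over the members and 1.18 over all genes. By comparison, the clock genes Arntl and Dbp had fitted RNA folds of 24.98 and 42.1. The swings of the 8 genes were small beside these clock genes, while their median RNA fold was above that of all genes.

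**Figure D2:**
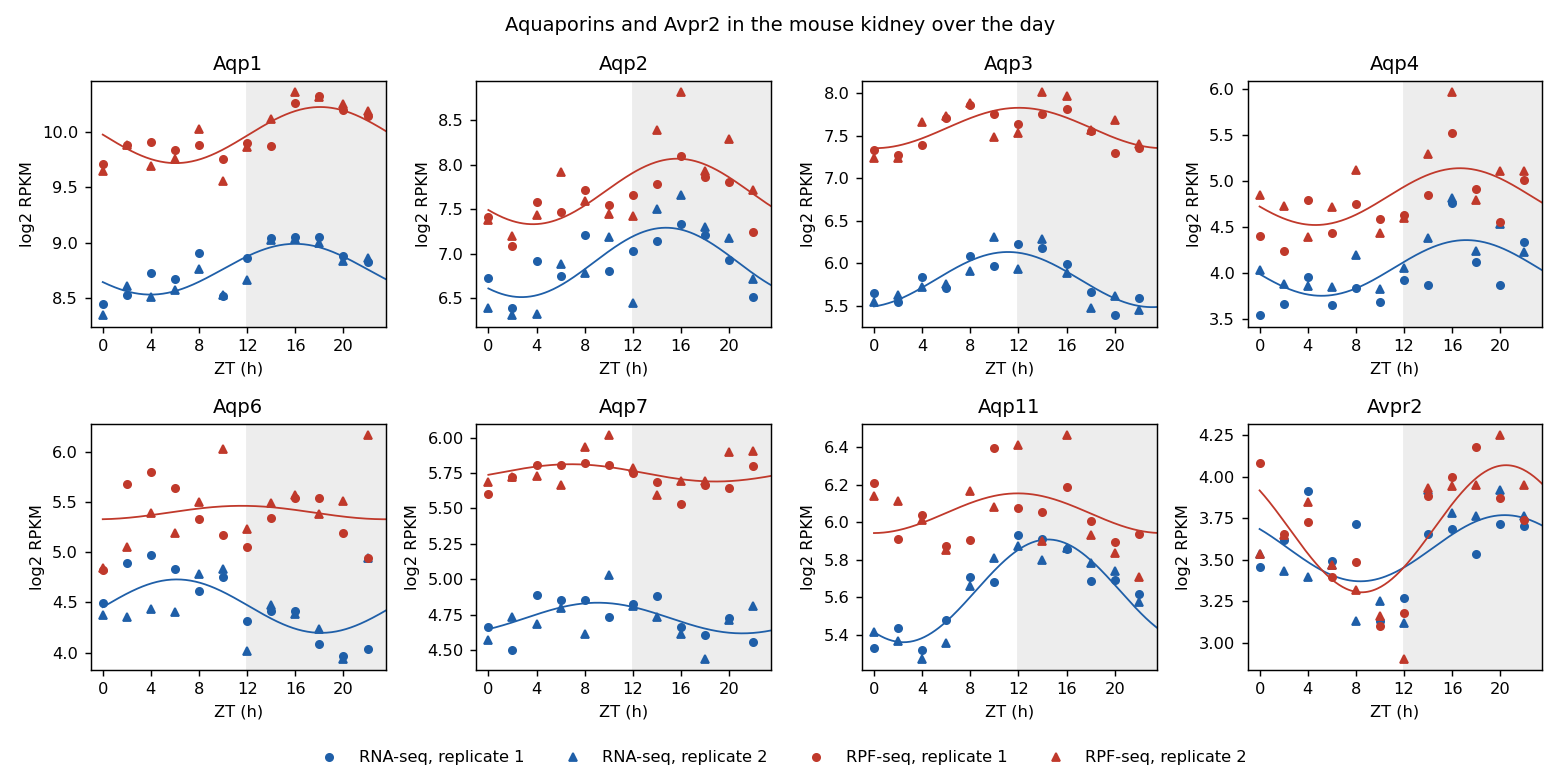
RNA-seq (blue) and RPF-seq (red) levels of the 8 genes in log2 RPKM (y axis, a separate scale per panel) against ZT in hours (x axis, dark phase shaded), with circles for replicate 1, triangles for replicate 2 and lines for the fitted 24-h curves. Aqp2 and Aqp4 have their highest RPF-seq pool at ZT16 in replicate 2 (450 and 62.7 RPKM), and the Aqp6 and Aqp11 curves are flatter in RPF-seq than in RNA-seq.

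Aqp2, the channel that vasopressin moves, was lowest early in the light and highest early in the dark. Its RNA stood at 83.9 and 79.2 RPKM in the pools of ZT2, at 108 and 118 at ZT6, at 142 and 181 at ZT14, at 161 and 202 at ZT16 and at 91.8 and 106 at ZT22. The lowest, median and highest of its 24 RNA values were 79.2, 120 and 202 RPKM. Pools of ZT2 to ZT10 (79.2 to 148 RPKM) and of ZT14 to ZT22 (91.8 to 202 RPKM) overlapped, whereas both pools of ZT16 were above both pools of ZT2. The fitted peak-to-trough difference was 0.78 ± 0.14 (log2, SE), or 1.72-fold, with a peak at ZT14.8 ± 0.70 h (limma, FDR = 0.00036).

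The footprints of Aqp2 followed with a similar swing. They numbered 136 and 147 RPKM at ZT2, 220 and 335 at ZT14, 273 and 450 at ZT16, 225 and 312 at ZT20, and 152 and 210 at ZT22. The fitted difference was 0.74 ± 0.17 (log2, SE), or 1.67-fold, peaking at ZT15.7 ± 0.86 h (limma, FDR = 0.0048). The RPF peak was 0.94 h after the RNA peak, with a 95% interval from -0.42 to 2.30 h that includes 0. The fitted TE of Aqp2 changed by 1.14-fold (limma, FDR = 0.45). The replicates of Aqp2 differed more than those of most members, by an SD within timepoints of 0.25 log2 units in RNA-seq and 0.26 in RPF-seq, compared with 0.08 and 0.09 for Aqp1.

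Aqp4, one of the basolateral exits, gave its called rhythm largely through ZT16. Its RNA was 11.6 and 16.4 RPKM at ZT0, 12.6 and 14.4 at ZT6, 27.1 and 28.3 at ZT16 and 17.4 and 18.9 at ZT18. Both ZT16 values lay above each of the other 22, the next highest being 23.1 RPKM in a pool of ZT20. In footprints Aqp4 measured 19.0 and 26.6 RPKM at ZT2, 46.0 and 62.7 at ZT16 and 30.1 and 27.7 at ZT18. The fitted curves had peaks at ZT17.2 ± 0.89 h in RNA-seq (1.52-fold, limma FDR = 0.0036) and at ZT16.6 ± 1.10 h in RPF-seq (1.53-fold, limma FDR = 0.028). The peak shift from RNA to RPF was -0.51 h (95% interval -1.75 to 0.73 h), and the fitted TE fold of 1.06 was the smallest of the 8 genes.

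Both pools of ZT16 also had high levels of medullary and erythroid markers. Of the 2 inner medulla markers, Cryab had medians of 107 (RNA-seq) and 333 RPKM (RPF-seq), and Slc14a2 of 8.84 and 5.84. Their summed RPKM was thus mostly Cryab. It ran from 81.8 to 173 in RNA-seq and from 236 to 624 in RPF-seq. The highest pool in both assays was replicate 2 of ZT16. The same pool had the highest sum of the 3 thick ascending limb markers in both assays and the lowest RPF sum of the 3 straight proximal tubule markers, while 6 principal cell markers (Fxyd4, Scnn1b, Scnn1g, Hsd11b2, Elf5 and Gata3) summed to 164 RPKM there in RNA-seq (median pool also 164) and to 386 RPKM in RPF-seq (median pool 354). The erythroid genes Alas2 and Hba-a1 summed to 215 and 201 RPKM in the ZT16 pools in RNA-seq, the 2 highest of 24 (median 58.0), and to 118 and 83.4 RPKM in RPF-seq (median 33.6). The smooth muscle sum in RPF-seq was also highest in replicate 2 of ZT16 (109 RPKM, median 52.0). Across 24 pools the mean log2 level of Slc14a2 and Cryab correlated with Aqp2 (r = 0.62 in RNA-seq and 0.57 in RPF-seq) and with Aqp4 (r = 0.60 and 0.60). The mean log2 level of the 6 principal cell markers had r = 0.10 with Aqp2 and -0.02 with Aqp4 in RNA-seq and 0.66 with each in RPF-seq. For 7 proximal tubule markers, r with Aqp2 was 0.50 (RNA) and 0.57 (footprints), and r with Aqp4 was 0.44 and 0.54. The 3 straight proximal tubule markers gave -0.17 and -0.53 with Aqp2, and 0.16 and -0.57 with Aqp4. Positive correlations with Aqp2 and Aqp4 were thus not particular to the medullary markers. All these correlations describe libraries that share timepoints, and the part of any of these cell types in the ZT16 values was not tested. Without replicate 2 of ZT16, the Aqp2 differences were 0.71 (RNA) and 0.59 (RPF) and both calls held. Those of Aqp4 fell to 0.52 and 0.46 and neither was called. Without both pools of ZT16, Aqp2 kept its RNA call (0.69), but its RPF difference of 0.56 was below 1.5-fold, and Aqp4 had 0.42 in RNA-seq and 0.35 in RPF-seq.

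**Figure D3:**
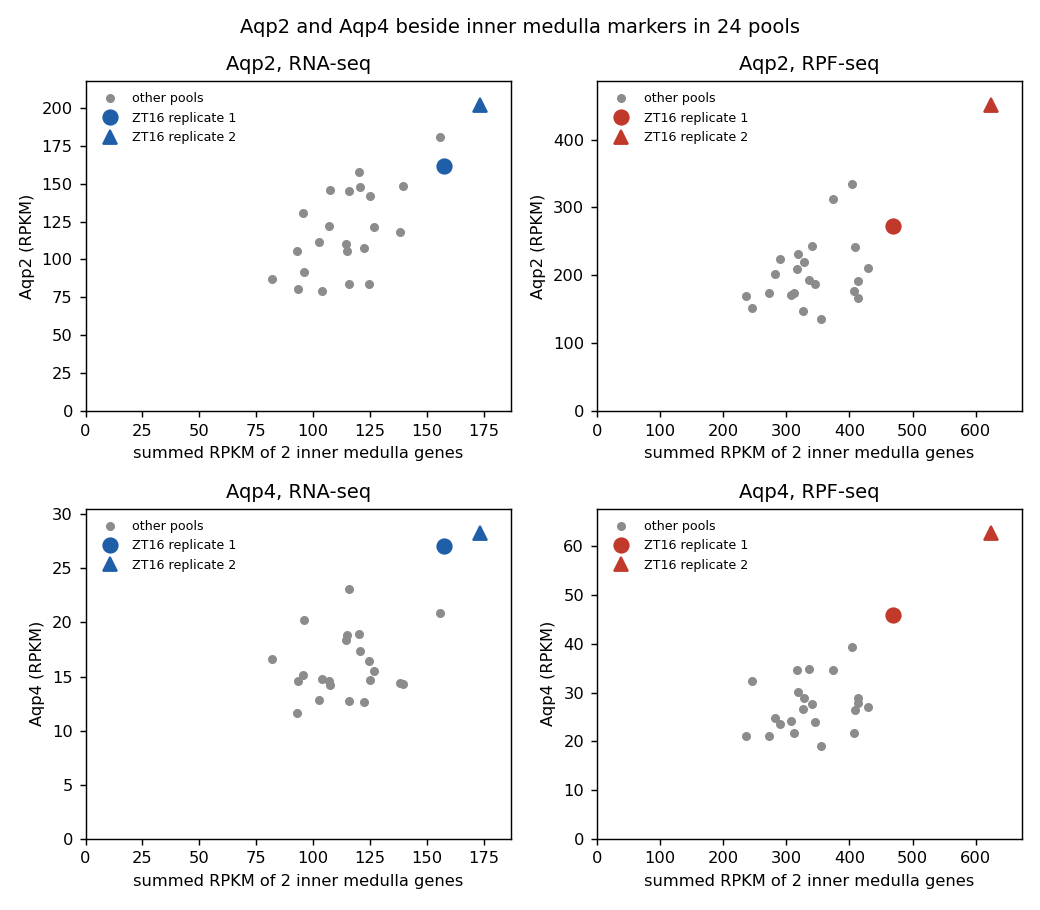
Aqp2 (top) and Aqp4 (bottom) in RPKM (y axis) against the summed RPKM of Slc14a2 and Cryab (x axis) in the 24 RNA-seq (left) and 24 RPF-seq (right) libraries, with the 2 pools of ZT16 in colour. Replicate 2 of ZT16 is the highest library on both axes in all 4 panels, with a marker sum of 173 RPKM in RNA-seq and 624 RPKM in RPF-seq. Most of the marker sum is Cryab.

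Aqp3 had the earliest peak of the 3 rhythmic RNAs, around lights-off. Its RNA rose from 46.7 and 49.6 RPKM at ZT2 to 74.8 and 61.4 at ZT12 and 72.7 and 78.0 at ZT14, and stood at 41.9 and 49.0 at ZT20. Both pools of ZT14 were above all 12 pools of ZT18 to ZT4. The fitted difference was 0.65 ± 0.08 (log2, SE), or 1.57-fold, with a peak at ZT11.1 ± 0.47 h (limma, FDR = 2.5e-06). Leaving out ZT16 changed it to 0.64. In RPF-seq Aqp3 was at 155 and 150 RPKM at ZT2, 232 and 236 at ZT8, 199 and 185 at ZT12 and 225 and 250 at ZT16. That fitted fold was 1.39 (peak at ZT12.1 ± 0.75 h, limma FDR = 0.0014) and missed the fold cutoff. The shift from the RNA peak was 0.92 h (95% interval -0.98 to 2.83 h). The fitted TE fold was 1.16 (limma, FDR = 0.40).

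Avpr2 showed the reverse order, called in footprints and not in RNA. Its footprints were lowest at the end of the light phase, with 8.60 and 8.96 RPKM at ZT10 and 9.07 and 7.50 at ZT12. By ZT14 they stood at 14.8 and 15.3 RPKM, and they reached 18.1 and 15.4 at ZT18 and 14.6 and 19.0 at ZT20. The pools of ZT14 to ZT22 had at least 13.4 RPKM and those of ZT6 to ZT12 at most 11.2, with values of 11.6 to 16.9 in the pools of ZT0 to ZT4 between and among them. The fitted difference was 0.76 ± 0.13 (log2, SE), or 1.70-fold, with a peak at ZT20.5 ± 0.64 h (limma, FDR = 0.00031). The RNA was 9.66 and 8.69 RPKM at ZT12 and 12.6 and 15.1 at ZT14, and its 24 values ran from 8.69 to 15.1. Its fitted fold was 1.32 (peak at ZT20.4 ± 1.10 h, limma FDR = 0.018). That the fold was called in RPF-seq alone does not make the assays differ: the TE fold of 1.29 had an FDR of 0.070 in limma, and the peaks were 0.11 h apart (95% interval -1.84 to 2.05 h). Avpr2 rested on the fewest reads, an estimated 127 to 361 per library in RNA-seq and 188 to 659 in RPF-seq. These numbers assume the longest coding length, and with the shortest they would be 55 to 156 and 81 to 285.

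Aqp1 varied over the day in both assays, though by less than 1.5-fold. Its RNA ranged from 324 RPKM in a pool of ZT0 to 532 in a pool of ZT18, and all 6 pools of ZT14, ZT16 and ZT18 (512 to 532 RPKM) were above the other 18. The fitted fold was 1.37 in RNA-seq (peak at ZT16.0 ± 0.69 h, limma FDR = 0.00034) and 1.42 in RPF-seq (peak at ZT18.1 ± 0.67 h, limma FDR = 0.00045). The footprints stood at 938 and 1109 RPKM at ZT14, when the RNA was already high, and at 1229 and 1314 at ZT16 and 1284 and 1277 at ZT18. Aqp1 was the one member whose 95% interval of the peak shift lay above 0, with the RPF peak 2.09 h after the RNA peak (0.89 to 3.29 h). The 7 proximal tubule markers, among them Slc34a1, Lrp2 and Slc5a2, had a fitted fold of 1.12 (RNA, peak at ZT15.9) and 1.17 (RPF, peak at ZT16.2) in their mean log2 level, and this level correlated with Aqp1 at r = 0.77 in RNA-seq and 0.58 in RPF-seq over 24 pools. Replicate differences of these markers and Aqp1 had r = 0.27 in RNA-seq and 0.25 in RPF-seq over 12 timepoints. For the 3 straight proximal tubule markers, r with Aqp1 was 0.11 (RNA) and -0.39 (RPF) over 24 pools. Their replicate differences had r = -0.29 and -0.64. The part of proximal tubule content in the Aqp1 profile was not tested.

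**Figure D4:**
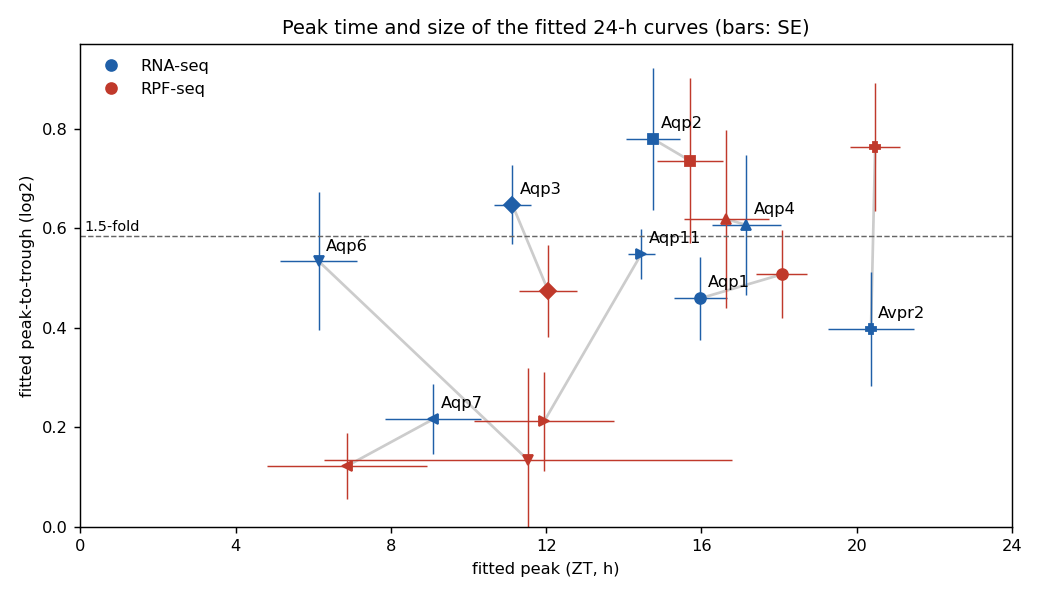
Fitted peak time (x axis, ZT in hours) and fitted peak-to-trough difference (y axis, log2; dashed line at 1.5-fold) of each gene in RNA-seq (blue) and RPF-seq (red), with bars for SE and a grey line joining the 2 assays of a gene. Aqp2 and Aqp4 lie above the dashed line in both assays with peaks between ZT14.8 and ZT17.2, and Avpr2 lies above it in RPF-seq alone at ZT20.5.

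Aqp6, Aqp7 and Aqp11 varied in RNA at the FDR and not in footprints. Aqp11 RNA had the smallest SD within timepoints of all members, 0.06 log2 units. It measured 39.9 and 38.6 RPKM at ZT4, 61.0 and 58.5 at ZT12 and 49.0 and 47.6 at ZT22. The fitted fold was 1.46 (difference 0.55 ± 0.05, log2, SE; peak at ZT14.5 ± 0.34 h; limma FDR = 2.3e-08), just under the cutoff, and Aqp2 and Aqp4 were called at a higher FDR because their swing was larger. The footprints of Aqp11 did not follow that course, with 73.9 and 70.5 RPKM at ZT0, 65.8 and 64.5 at ZT4, 67.3 and 85.1 at ZT12 and 61.2 and 52.1 at ZT22 (fold 1.16, limma FDR = 0.23).

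Aqp6 RNA was the one with a peak in the middle of the light phase. It stood at 31.3 and 21.6 RPKM at ZT4, 26.9 and 28.6 at ZT10 and 15.7 and 15.4 at ZT20, and at ZT22 the replicates were 16.4 and 30.8 RPKM. The fitted fold was 1.45 (peak at ZT6.1 ± 0.99 h, limma FDR = 0.0091). Footprints were at 55.7 and 41.9 RPKM at ZT4, 36.2 and 65.4 at ZT10 and 36.6 and 45.5 at ZT20, a fitted fold of 1.10 (limma, FDR = 0.83). Relative to its neighbour on chromosome 15, Aqp2 RNA was 3.35-fold above Aqp6 at ZT2 and 8.63-fold above it at ZT20 (timepoint means). Replicates of Aqp6 varied most among the members, with an SD within timepoints of 0.27 log2 units in RNA-seq and 0.36 in RPF-seq. The replicate differences of Aqp6 ran along with those of the 6 intercalated cell markers (Slc4a1, Slc26a4, Slc4a9, Atp6v1g3, Atp6v0d2 and Foxi1), with r = 0.56 in RNA-seq and 0.77 in RPF-seq over 12 timepoints. They also ran along with those of the 3 adipocyte markers (r = 0.62 and 0.55) and the 6 principal cell markers (r = 0.39 and 0.54). The part of these cells in the Aqp6 values was not tested.

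Aqp7 was the flattest member. Its RNA lay between 21.7 and 32.7 RPKM and its footprints between 46.3 and 64.7. The fitted folds were 1.16 in RNA-seq (limma, FDR = 0.038) and 1.09 in RPF-seq (limma, FDR = 0.32). The glycerol channels Aqp3 and Aqp7 therefore had RNA peaks at ZT11.1 and ZT9.1 but folds of 1.57 and 1.16.

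TE itself was tested in the same model with the log2 ratio per pool as its value, which asks whether the day acts differently on the 2 assays. None of the 8 genes was called (0 of 8 at an FDR below 0.05 and at least 1.5-fold in limma, 4 at an unadjusted p below 0.05), against 3.74% of all tested genes called and 34% at that p. The median TE fold was 1.18 over the members and 1.19 over all genes. Without the fold cutoff 2 of 8 passed, Aqp1 and Aqp6, against 17.1% of all genes. The TE of Aqp6 was 1.25 and 1.39 (RPF over RNA) at ZT0, 1.78 and 1.94 at ZT4, 2.75 and 2.23 at ZT18 and 2.34 and 2.97 at ZT20, with a fitted fold of 1.44 and a peak at ZT17.2 ± 1.03 h (limma, FDR = 0.034). The pools of ZT14 to ZT22 had 1.87 to 2.97, those of ZT2 to ZT10 1.34 to 2.29. The TE of Aqp1 was 1.78 and 2.13 at ZT14 and 2.50 and 2.68 at ZT20, a fitted fold of 1.20 with a peak at ZT22.4 ± 0.99 h (limma, FDR = 0.028). In Aqp11 the TE was 1.84 and 1.66 at ZT0 and 1.11 and 1.07 at ZT14, with a fitted fold of 1.32 and a peak at ZT3.7 that missed the threshold (limma, FDR = 0.053, and 0.022 without the pools of ZT16). Depth moved with the day as well, since the median library of ZT2 to ZT10 held 17400000 reads in RNA-seq and 25990000 in RPF-seq, and that of ZT14 to ZT22 held 12730000 and 19540000. With depth as a covariate, the TE difference of Aqp6 was 0.40 (FDR = 0.28) and that of Aqp1 0.25 (FDR = 0.099), so that neither passed.

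**Figure D5:**
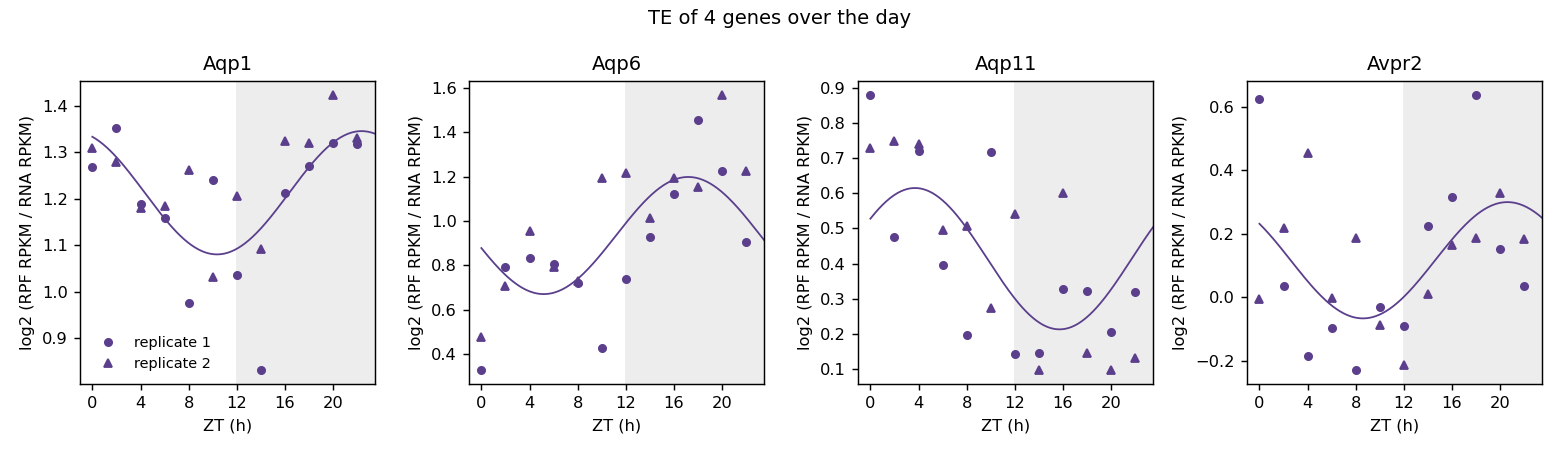
TE as the log2 ratio of RPF to RNA RPKM (y axis, a separate scale per panel) against ZT in hours (x axis, dark phase shaded) for Aqp1, Aqp6, Aqp11 and Avpr2, with 1 symbol per pool and the fitted 24-h curve. The Aqp6 curve peaks at ZT17.2 and the Aqp11 curve at ZT3.7, and the replicates of Aqp6 at ZT10 (1.34 and 2.29 as ratios) and of Avpr2 at ZT0 (1.54 and 1.00) lie apart.

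Among themselves the members fell into no single pattern. Over the 24 RNA-seq libraries, Aqp1 and Aqp2 had r = 0.74, Aqp1 and Aqp11 0.68, Aqp2 and Aqp11 0.66 and Aqp2 and Aqp4 0.53, while Aqp6 had r = -0.30 with Aqp1 and -0.34 with Aqp4. In RPF-seq the closest pairs by Pearson r were Aqp2 and Aqp4 (r = 0.78), Aqp1 and Aqp4 (r = 0.69) and Aqp2 and Aqp3 (r = 0.68). Their Spearman rho values were 0.60, 0.67 and 0.68, so that Aqp2 and Aqp4 were not the closest pair by rank. The closest pair in replicate differences in RNA-seq was Aqp2 and Avpr2 (r = 0.78 over 12 timepoints), against 0.34 in RPF-seq. Avpr2 replicate differences in RNA-seq also ran along with those of the 2 inner medulla genes (r = 0.81, and -0.31 in RPF-seq). These values describe libraries that share timepoints, depth and lysates.

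Of all tested genes, those whose RNA profile over the 24 libraries was most like that of Aqp2 were Aldoc (r = 0.87), which encodes a glycolytic aldolase, the epithelial mucin gene Muc1 (r = 0.83) and Got1 (r = 0.83), a cytosolic aspartate aminotransferase. Aqp3 was most like Erf, an ETS repressor (r = 0.90), the proline transporter gene Slc6a20a (r = 0.88) and the kinase gene Snrk (r = 0.88). The closest to Aqp4 were Ralyl (r = 0.79), the mediator subunit gene Med1 (r = 0.76) and the serpin Serpina1f (r = 0.75). The likeness of Aqp4 thus was the weakest of the 3.

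Of the aquaporins that are not members, Aqp8 was listed in both assays, at a median of only 0.70 RPKM in RNA-seq and 1.03 in RPF-seq. It was called in both, with a fitted fold of 8.55 and a peak at ZT1.3 in RNA-seq (from 0.13 RPKM at ZT12 to 2.43 at ZT2, timepoint means) and a peak at ZT1.1 in RPF-seq. Aqp8 encodes a water and ammonia channel, and its peak near lights-on lay apart from those of all 8 members.

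Downstream of the receptor, calls in the cAMP cascade and in the lists that follow are read against the shares of all genes called by the same rule, 10.2% for RNA, 7.58% for footprints and 3.74% for TE. Of 18 tested genes from Gs and the adenylyl cyclases to protein kinase A, phosphodiesterases and anchoring proteins, 1 was called in RNA-seq (Adcy3, 1.53-fold, peak at ZT5.3), 2 in RPF-seq (the regulatory subunit gene Prkar2b, 1.63-fold at ZT6.1, and the anchoring protein gene Akap7, 1.68-fold at ZT10.4) and 2 in TE. The latter were Akap7 (1.504-fold at ZT9.9) and Prkar1a, which encodes a type I regulatory subunit of protein kinase A, with a TE fold of 1.53 and a peak at ZT16.8. Their median folds of 1.24, 1.19 and 1.19 in RNA-seq, RPF-seq and TE compared with 1.20, 1.18 and 1.19 over all genes.

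Of 20 genes for the trafficking and turnover of AQP2, 3 were called in RNA-seq (10.2% of all genes). The chaperone gene Hspa8 (1.84-fold) had its peak at ZT16.1, whereas the vesicle fusion genes Vamp2 (1.94-fold) and Stx4a (1.85-fold) had theirs at ZT7.9 and ZT5.5. Hspa8 (2.00-fold) and Vamp2 (1.51-fold) were also called in RPF-seq. In TE 0 of 20 were called (3.74% of all genes), with 8 at an unadjusted p below 0.05 in limma, as had 34% of all genes.

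The transcription factors linked to Aqp2 gave 2 calls of 13 in RNA-seq (10.2% of all genes), Gata3 (1.60-fold, peak at ZT7.4) and Tfap2a (2.34-fold, peak at ZT5.7), and 1 in RPF-seq (7.58% of all genes), Nr1h4, which encodes the bile acid receptor FXR (1.54-fold, peak at ZT9.7). Tfap2a (2.75-fold, peak at ZT17.4) and Hoxb7 (1.67-fold, peak at ZT21.9) were called in TE (3.74% of all genes). Without the fold cutoff 4 of 13 passed in RNA-seq, against 48.6% of all genes. Both called RNAs peaked in the light phase and Aqp2 RNA in the dark, and a link between them was not tested.

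Of 9 tested genes of the response to hypertonicity and urea, 3 were called in RNA-seq (10.2% of all genes), the betaine transporter gene Slc6a12 (2.06-fold, peak at ZT16.4), the heat shock gene Hspa1b (2.62-fold, peak at ZT15.4) and Hspa4l (1.59-fold, peak at ZT21.2). In RPF-seq Slc6a12 (2.75-fold, peak at ZT13.5), the myo-inositol transporter gene Slc5a3 (1.59-fold, peak at ZT16.1) and the amino acid transporter gene Slc38a2 (1.66-fold, peak at ZT18.1) were called (7.58% of all genes). The urea transporter genes Slc14a1 and Slc14a2 were not called in any measure. The median fold of the 9 was 1.32 in RNA-seq and 1.39 in RPF-seq. Slc6a12 was also called in TE (1.97-fold, peak at ZT10.5) and had a median RNA level of 0.86 RPKM.

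Among 8 tested receptors that oppose or modulate vasopressin, the V1a receptor gene Avpr1a had the largest swing, 3.42-fold in RNA-seq with a peak at ZT0.3 and 3.07-fold in RPF-seq with a peak at ZT23.1. These peaks lay later than those of Avpr2 in both assays, a difference that was not tested. The purinergic receptor gene P2ry2 was called in RNA-seq (1.64-fold, peak at ZT13.1), and the prostaglandin EP3 receptor gene Ptger3, whose product lowers cAMP, in RPF-seq (1.94-fold, peak at ZT17.9) and in TE (1.63-fold, peak at ZT16.9). Of 6 glycerol handling genes, the lipase gene Pnpla2 was called in RNA-seq (1.88-fold, peak at ZT8.1) and RPF-seq (1.54-fold, peak at ZT7.7). The glycerol kinase gene Gk and the dehydrogenase genes Gpd1 and Gpd2 were not called.

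The markers of other cells bore on the lists in a few places. Of the 6 principal cell markers, Gata3 and Hsd11b2 were called in RNA-seq with peaks at ZT7.4 and ZT5.1. Scnn1g passed the RNA FDR but not the fold cutoff, at 1.28-fold with a peak at ZT16.3 (limma, FDR = 0.0015). In RPF-seq 0 of 6 were called (4 at an unadjusted p below 0.05 in limma, as had 42.6% of all genes). In TE Hsd11b2 was called (2.08-fold, peak at ZT17.4). Its median was the highest of the 6, 70.2 RPKM in RNA-seq and 214 in RPF-seq, so that it weighs most in their sum. The summed principal cell markers were 150 to 216 RPKM at ZT2 to ZT10 and 117 to 167 at ZT14 to ZT22 in RNA-seq and 295 to 369 against 332 to 422 in RPF-seq. The mean log2 RNA-seq level of these markers was then used as a covariate for all 3 measures. The same number of members was called, 3 for RNA, 3 for footprints and 0 for TE. That covariate itself varied over the day (fitted fold 1.20, peak at ZT7.0), and the part of principal cell content was not tested. The RPF-seq level of the markers was not used as a covariate. The adipocyte markers Adipoq and Cidec were called in both assays with peaks from ZT4.0 to ZT6.4, and the sum of the 3 adipocyte genes was 1.66 to 9.03 RPKM at ZT2 to ZT10 and 0.53 to 4.85 at ZT14 to ZT22 in RNA-seq. Aqp7 and Pnpla2 are also expressed in fat, and the part of perirenal fat in their values was not tested.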

How the data were processed

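The authors trimmed adapters with Cutadapt, kept fragments of the expected size, mapped the reads first to rRNA and tRNA and then to mouse cDNA (Ensembl release 75) with Bowtie 2.2.1 and to GRCm38.p2 with Tophat 2.0.11, and built transcript models with Cufflinks 2.2.1. The deposited values were RPKM per gene from reads on coding sequences, scaled by the authors with upper quantiles in edgeR and filtered by an RPKM cutoff, so that changes in total mRNA per cell are not visible in them. These values are not counts, and no count model was used. Read numbers were estimated from the steps between low RPKM values, of which 94.0% to 99.2% per library lay within 0.1 of a whole read, with coding lengths from GENCODE M21 (GRCm38). They cover counting error only.

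From there, values were taken as log2(RPKM + 0.1), and 11863 genes with a median of at least 0.5 RPKM in both assays were fitted in limma 3.58.1 (R 4.3.3, eBayes with trend, Benjamini-Hochberg over all genes). TE was the log2 ratio per pool, and its level was centred on the median gene of the pool. Fold changes of low genes are understated by the pseudocount. Intervals of peak shifts took the residual correlation of the 2 assays into account. The remaining values came from Python 3.11.15 with numpy 2.4.6 and pandas 2.3.3. The rhythm test was checked on simulated data.

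Members and gene lists were chosen with earlier results of these data known. Named besides the members were up to 4 called genes per list and assay by fold, the genes of counts of 5 or fewer, the 3 genes most like each called RNA by Pearson r, and clock genes as a reference. Groups were the timepoints, with 2 pools each of separate mice. RNA-seq and RPF-seq came from the same lysate pool, and their deviations from the timepoint means ran together in all 12 timepoints (mean r = 0.24). For each of 4 results a set of alternatives was computed, 54 chosen beforehand and 8 after seeing the data. Of the inner medulla list, 1 gene is not reported here and was left out of its sums. Aqp4 is given without its position, and the liver libraries of the study were not analysed here.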

Additional observations from a re-analysis of the deposited data

Results flagged for a closer look

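For 2 of the 8 genes the course over the day differed between RPF-seq and RNA-seq at an FDR below 0.05 in limma. In Aqp6 the TE had a peak-to-trough difference of 0.53 on the log2 scale (SE 0.14, FDR = 0.034), with an RNA peak in the light phase and no daily course passing the test in footprints. In Aqp1 it was 0.26 (SE 0.07, FDR = 0.028), with the footprint peak 2.09 h after the RNA peak. Both were below 1.5-fold, and 17.1% of all tested genes passed the same FDR. With only replicate 2 or only replicate 1, the FDR was 0.32 and 0.23 for Aqp6 and 0.42 and 0.24 for Aqp1, and with depth as a covariate 0.28 and 0.099.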

How the results depend on the processing

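The main counts were 3 members called in RNA-seq, 3 in RPF-seq, 0 in TE and 6 with a TE above the median gene. Without the fold cutoff they were 8, 5 and 2 for the 3 rhythms, and with the 12 timepoints as a factor 5 in RNA-seq (with Aqp1 and Aqp11 added) and 5 in RPF-seq (with Aqp1 and Aqp3 added). A 12-h harmonic gave 1 call in TE, Aqp6. Leaving out a replicate left 12 pools: 2 to 4 members were then called in RNA-seq, 0 to 1 in RPF-seq, 0 in TE and 6 for the TE level. Without replicate 1 no RPF call remained (Avpr2 had an FDR of 0.080 and Aqp2 of 0.12), and without replicate 2 Avpr2 was the one left. In RNA-seq, leaving out replicate 1 added Avpr2, and leaving out replicate 2 lost Aqp2 (0.58) and Aqp4 and added Aqp6 (0.79), whose difference was 0.28 without replicate 1. Without ZT16, chosen after seeing the data, 1 member was called in RPF-seq, Avpr2. Aqp4 also lost its RNA call with a pseudocount of 1, and its RPF call at an FDR of 0.01, with the 12-h harmonic and with depth as a covariate. The causes were not tested. The 6 genes with a TE above the median gene were called under all 11 alternatives run for them.

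Same-numbered pools of different timepoints deviated together little on average, with a mean r of 0.029 for RNA and 0.020 for footprints. Of 66 pairs, 13 and 10 had a correlation over 0.1, the highest being 0.48 and 0.19. For TE there were 12 such pairs (mean 0.036, highest 0.34). Among the members, Aqp2 TE and Aqp4 RNA were higher in replicate 2 at most timepoints. The paper states that organs were collected over repeated daily cycles. Whether the replicate numbers follow these cycles is not known, so that a pairing of samples by number is not excluded. A replicate block gave 3, 3, 0 and 6 calls, and changed no call. Over all members and alternatives, called or not, 462 of 496 values kept their side of the thresholds, 16 lost a call and 18 gained one. The 16 lost calls were all rhythm calls, since the 6 TE level calls held throughout. A change of direction was counted only where both fits were called, and there were 0. Depth limits Avpr2 most, with 127 estimated reads (at the longest coding length) in its shallowest RNA-seq library.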
